A study of Mus musculus with 12 samples.

Results

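The 10 genes described here encode chaperones and foldases of the endoplasmic reticulum (ER) and transcription factors of the unfolded protein response. They are Calr, Canx, Hspa5, Hsp90b1, Pdia3, Pdia4, Pdia6, Xbp1, Ddit3 and Atf4, and they were chosen by name, as the rows of the expression table whose Ensembl identifiers map to those symbols. All 10 were found among the 38924 identifiers of the table, and all 10 passed the filter on low values. They were measured by bulk RNA-seq in 12 libraries of 3 progenitor types, sorted from marrow of C57Bl/6J females, an inbred laboratory mouse strain.

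Granulocyte-monocyte progenitors (GMP) were Lin- Sca1- cKit+ CD150- CD34+ FcgR+ cells and give rise to granulocytes and monocytes. Common lymphoid progenitors (CLP) were Lin- Sca1lo cKitlo IL7Ra+ Flk2+ cells and give rise mainly to lymphocytes. Lymphoid-primed multipotent progenitors (LMPP) were Lin- Sca1+ cKit+ CD150- CD34+ Flk2hi cells and keep both potentials. All types were depleted of cells with mature lineage markers, and the labels name no engineered allele or treatment. Each type had 4 libraries, 2 in each of 2 batches named in the sample titles. The labels give no donor age for the bulk libraries and do not say whether replicate libraries hold cells of different mice, so the p-values reflect library-to-library spread, which may be technical.

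Secreted and granule proteins are made on ribosomes at the ER membrane and enter the ER lumen through the translocon, where they are glycosylated, folded and joined by disulphide bonds. Calreticulin and calnexin hold newly made glycoproteins, BiP and GRP94 bind unfolded chains, and protein disulphide isomerases form and rearrange disulphide bonds. When unfolded chains accumulate, the sensors IRE1, PERK and ATF6 start the unfolded protein response, in which Xbp1 messenger RNA is spliced, Atf4 is translated more and chaperone genes are transcribed more. GMP make the serine proteases and the myeloperoxidase of primary granules, which pass through this route.

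Values are TPM, a transcript abundance scaled by transcript length and by library total, so levels can be set beside each other between genes but the sequencing depth behind them is unknown. Differences are on the log2(TPM + 1) scale. A gene was called at a Benjamini-Hochberg adjusted p under 0.05 in a limma fit over 12718 genes with cell type and batch as terms. Defining markers followed the labels: the summed TPM of 8 GMP genes was 18247 to 20674 in GMP, 214 to 1874 in CLP and 1302 to 1739 in LMPP, and that of 6 CLP genes was 3.46 to 7.14, 1415 to 2359 and 611 to 868 in the same order; the first list holds Mpo and Elane. Within CLP the batches stood apart, with a summed level of 6 LMPP markers of 83.4 and 85.2 TPM in batch 2 and 313 and 386 TPM in batch 1. Batch 2 replicate 1 of CLP and of LMPP held erythroid and neutrophil transcripts (8 erythroid genes summed to 13781 and 28931 TPM) and are called the haemoglobin-rich pair.

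A known element of this response stood upstream of several of the genes, and the sequences are shown as a description. Because the element is a known one of this response, finding it in such genes was likely in advance and is no separate support. The ER stress response element (ERSE) reads CCAAT, then 9 bases of any kind, then CCACG; it is known as an element that ATF6 and XBP1 bind together with the CCAAT factor NF-Y. In the 250 bases before the RefSeq transcription start (build GRCm38.p6), both strands searched, 5 of the 10 genes held it. Over all promoters searched, 0.13% of 27025 genes and 0.113% of 32851 windows held it. Stretches with 20 bases on either side of the element follow, 5′ to 3′ on the strand of the gene, with the element in capitals. In Calr and in the second element of Hsp90b1 it lies on the opposite strand, and reads CGTGG first.
Calr, chr8:84847055-84847113, minus strand: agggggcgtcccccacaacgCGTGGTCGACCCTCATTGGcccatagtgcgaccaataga
Canx, chr11:50325780-50325838, minus strand: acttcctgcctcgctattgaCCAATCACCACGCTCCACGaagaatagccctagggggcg
Hspa5, chr2:34772005-34772063, plus strand: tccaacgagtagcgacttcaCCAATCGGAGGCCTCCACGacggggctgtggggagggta
Hsp90b1, chr10:86705513-86705676, minus strand: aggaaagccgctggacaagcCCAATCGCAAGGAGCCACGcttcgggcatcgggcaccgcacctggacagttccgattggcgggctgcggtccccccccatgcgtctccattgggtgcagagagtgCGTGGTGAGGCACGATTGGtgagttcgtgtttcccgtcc
Pdia6, chr12:17266471-17266529, plus strand: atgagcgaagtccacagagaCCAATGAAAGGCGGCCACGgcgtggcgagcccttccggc
The Hspa5 element began 65 bases before the start, the nearest of these, and the outer Hsp90b1 element 212 bases before it, the farthest.

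The windows of Pdia3, Pdia4, Xbp1, Ddit3 and Atf4 held no ERSE. The CCAAT box, counted on its own, stood in 9 of the 10 windows, all but that of Xbp1, against 33.8% of all windows, and CCACG in 6, against 28.3%; both also lie within each ERSE. ERSE-II (ATTGG, 1 base of any kind, CCACG) was in none of the 10 and in 0.0304% of all windows, the UPRE core TGACGTGG in none and 0.563%, the ATF4 element TGATGNAAT in none and 0.816%, and TATAAA in none and 12.4%. CCACG is also part of ERSE-II. Among the gene lists of the pathway used below, Creld2 and Dnajc3 of the folding factors and Derl3 and Syvn1 of the degradation genes held an ERSE. A promoter sequence was at hand for 19 of the 24 folding factors and 13 of the 16 degradation genes. The other lists also had genes without one, and genes without one were not searched. A match is a description of letters and not evidence of binding, and no match says only that the letters are not in this window. Beside the 10, 11 tested genes held an ERSE. Of these, 2 rose and 1 fell in GMP against LMPP, and 1 rose and 3 fell against CLP. Of genes without it, 7.94% rose and 21.3% fell against LMPP, and 10.6% and 13.9% against CLP. Whether the element has a part in the level of any gene was not tested.

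ER chaperone transcripts were higher in GMP than in either other type. Of the 10 genes, 8 rose in GMP against LMPP and 0 fell, where 7.62% of all tested genes rose and 21.3% fell. Against CLP the same 8 genes rose and 0 fell, where 9.96% of all tested genes rose and 13.9% fell; at an unadjusted p under 0.05, too, 0 of the 10 fell in either comparison. The median difference of the 10 was 1.26 against LMPP and 1.17 against CLP, beside medians of -0.24 and -0.09 over all tested genes. The GMP libraries enter both comparisons, so the 2 counts are not independent. Other scalings of the TPM moved the median of all genes against LMPP by 0.26 (median-ratio) and 0.30 (quantile) and turned the 969 higher and 2707 lower genes into 1943 and 1658, and 1659 and 1552, while 8 and 7 of the 10 genes rose and 0 fell; Canx was the gene lost under quantile scaling. Against CLP, 1267 genes were higher and 1773 lower, with 1757 and 1479 under median-ratio and 1588 and 1426 under quantile scaling, and 8 of the 10 genes rose under each. In bulk samples, more cells of a type and more RNA per cell cannot be told apart.

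**Figure D1:**
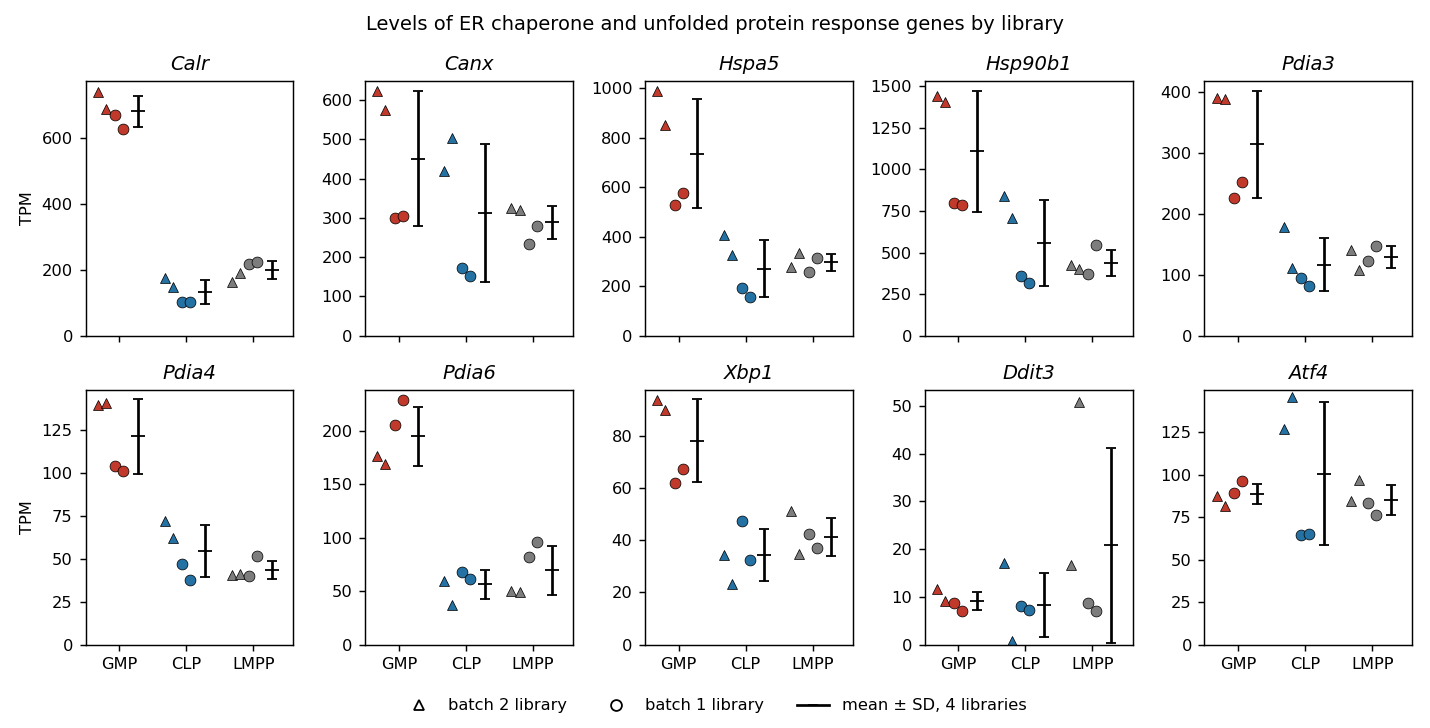
TPM of each gene (vertical axis, linear from 0) in GMP, CLP and LMPP, with triangles for batch 2 and circles for batch 1 libraries and a bar for the mean ± SD of 4 libraries. For Calr, Hspa5, Pdia3, Pdia4, Pdia6 and Xbp1 every GMP library lies above every CLP and LMPP library, whereas Ddit3 and Atf4 overlap between all types. The share of all tested genes that separate in this way was not counted, so nothing particular to these genes is read from it.

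The lectin chaperones came apart from each other. Calr encodes calreticulin, the soluble lectin chaperone of the ER lumen (ENSMUSG00000003814, chromosome 8, 84841850 to 84846934, minus strand in mm10). Calr stood at 742 and 689 TPM in batch 2 GMP and 670.5 and 627 TPM in batch 1 GMP, against 176 and 147 TPM and 103 and 103 TPM in CLP of the same batches, and 164 and 189 TPM and 217 and 224 TPM in LMPP. Every GMP library was above every other library, and the 4 GMP values lay close together, with means of 682 ± 47.4 TPM in GMP, 132 ± 35.9 TPM in CLP and 198 ± 27.5 TPM in LMPP (SD, n = 4 each). Its log2 difference was 2.39 (SE 0.17, limma adjusted p = 3.05e-06) in GMP against CLP and 1.78 (SE 0.17, limma adjusted p = 3.44e-05) in GMP against LMPP, the largest of the 10 genes in both comparisons. Within batches, the difference was 2.14 in batch 2 and 2.64 in batch 1 against CLP and 2.02 in batch 2 and 1.55 in batch 1 against LMPP.

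Canx encodes calnexin, the membrane-bound lectin chaperone that shares its clients (ENSMUSG00000020368, chromosome 11, 50293961 to 50325673, minus strand in mm10). Canx stood at 624 and 575 TPM in batch 2 GMP and 299 and 306 TPM in batch 1 GMP, against 419.6 and 503 TPM and 173 and 152 TPM in CLP of the same batches, and 325 and 319 TPM and 234 and 279 TPM in LMPP. The batch 1 GMP libraries lay inside the LMPP range and the batch 2 CLP libraries above the batch 1 GMP libraries, so both comparisons overlapped. Canx was called in GMP, by 0.57 (SE 0.20, limma adjusted p = 0.0486) against LMPP and 0.64 (SE 0.20, limma adjusted p = 0.0345) against CLP, and both calls depended on single libraries. Against LMPP the call was lost when any 1 library was left out other than CLP batch 1 replicate 2, CLP batch 2 replicate 2 or LMPP batch 1 replicate 2, with adjusted p between 0.0535 and 0.14. Against CLP it was lost without any 1 of the 4 GMP or the 2 batch 1 CLP libraries, with adjusted p between 0.0668 and 0.0945. Within batches, the Canx difference was 0.90 in batch 2 and 0.24 in batch 1 against LMPP and 0.38 in batch 2 and 0.90 in batch 1 against CLP.

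The ratio of the lectin chaperones set GMP apart. Calr TPM over Canx TPM was 1.19 to 2.24 in GMP, 0.293 to 0.680 in CLP and 0.505 to 0.930 in LMPP, and GMP did not overlap the others. Calr was above Canx in all 4 GMP libraries and below it in all 8 CLP and LMPP libraries. The ratio is given as a description, with no test.

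Hspa5 encodes BiP, the Hsp70 chaperone of the ER that also holds the sensors inactive (ENSMUSG00000026864, chromosome 2, 34771970 to 34777547, plus strand in mm10). Hspa5 stood at 988 and 853 TPM in batch 2 GMP and 529 and 575 TPM in batch 1 GMP, against 408 and 325 TPM and 194 and 158 TPM in CLP of the same batches, and 279 and 334 TPM and 257 and 316 TPM in LMPP. All GMP libraries were above all CLP and LMPP libraries, and in GMP and CLP alike batch 2 was above batch 1. Hspa5 rose by 1.49 (SE 0.19, limma adjusted p = 0.000175) against CLP and 1.27 (SE 0.19, limma adjusted p = 0.000531) against LMPP. The within-batch differences were 1.33 in batch 2 and 1.65 in batch 1 against CLP and 1.58 in batch 2 and 0.95 in batch 1 against LMPP.

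Hsp90b1 encodes GRP94, the Hsp90 chaperone of the ER, which folds integrins and Toll-like receptors (ENSMUSG00000020048, chromosome 10, 86690209 to 86705509, minus strand in mm10). Hsp90b1 stood at 1445 and 1404 TPM in batch 2 GMP and 799 and 789 TPM in batch 1 GMP, against 842 and 709 TPM and 362 and 319 TPM in CLP of the same batches, and 424 and 404 TPM and 373 and 546 TPM in LMPP. GMP was above LMPP without overlap, while a batch 2 CLP library exceeded both batch 1 GMP libraries. Hsp90b1 rose by 1.30 (SE 0.23, limma adjusted p = 0.00168) against LMPP and 1.05 (SE 0.23, limma adjusted p = 0.00606) against CLP. In single batches the difference was 1.78 in batch 2 and 0.81 in batch 1 against LMPP and 0.88 in batch 2 and 1.22 in batch 1 against CLP. It had the highest mean of the 10 genes in every type, with 1109 ± 365 TPM in GMP, 558 ± 257 TPM in CLP and 437 ± 75.8 TPM in LMPP (SD, n = 4 each).

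The 3 protein disulphide isomerases rose in GMP. Pdia3 encodes ERp57, which works on the glycoproteins held by calreticulin and calnexin (ENSMUSG00000027248, chromosome 2, 121413775 to 121438687, plus strand in mm10). Pdia3 stood at 391 and 388 TPM in batch 2 GMP and 226 and 252 TPM in batch 1 GMP, against 179 and 112 TPM and 94.4 and 81.8 TPM in CLP of the same batches, and 140.4 and 108 TPM and 122 and 147 TPM in LMPP. Its lowest GMP library was above its highest CLP and LMPP libraries, and the difference was 1.44 (SE 0.20, limma adjusted p = 0.00037) against CLP and 1.25 (SE 0.20, limma adjusted p = 0.00098) against LMPP. Within batches it was 1.45 in batch 2 and 1.43 in batch 1 against CLP and 1.66 in batch 2 and 0.83 in batch 1 against LMPP.

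Pdia4 encodes ERp72, a further disulphide isomerase (ENSMUSG00000025823, chromosome 6, 47796141 to 47813430, minus strand in mm10). Pdia4 stood at 139 and 141 TPM in batch 2 GMP and 104 and 101 TPM in batch 1 GMP, against 71.7 and 62.1 TPM and 47.1 and 37.6 TPM in CLP of the same batches, and 40.6 and 41.3 TPM and 40.1 and 51.4 TPM in LMPP. GMP again lay above all others, by 1.45 (SE 0.17, limma adjusted p = 0.000115) against LMPP and 1.16 (SE 0.17, limma adjusted p = 0.000508) against CLP, and within batches by 1.75 in batch 2 and 1.16 in batch 1 against LMPP and 1.06 in batch 2 and 1.26 in batch 1 against CLP.

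Pdia6 encodes P5, a disulphide isomerase that associates with BiP (ENSMUSG00000020571, chromosome 12, 17266545 to 17284770, plus strand in mm10). Pdia6 stood at 177 and 169 TPM in batch 2 GMP and 206 and 229 TPM in batch 1 GMP, against 59.4 and 37.2 TPM and 68.1 and 61.2 TPM in CLP of the same batches, and 50.2 and 49.6 TPM and 82.2 and 95.7 TPM in LMPP. GMP was above all other libraries, by 1.79 (SE 0.16, limma adjusted p = 1.42e-05) against CLP and 1.52 (SE 0.16, limma adjusted p = 5.93e-05) against LMPP. Its within-batch differences were 1.85 in batch 2 and 1.73 in batch 1 against CLP and 1.77 in batch 2 and 1.28 in batch 1 against LMPP. Pdia6 was lower in batch 2 than in batch 1 in the means of all 3 types, unlike Hspa5 and Canx, which were higher in batch 2 in all 3.

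**Figure D2:**
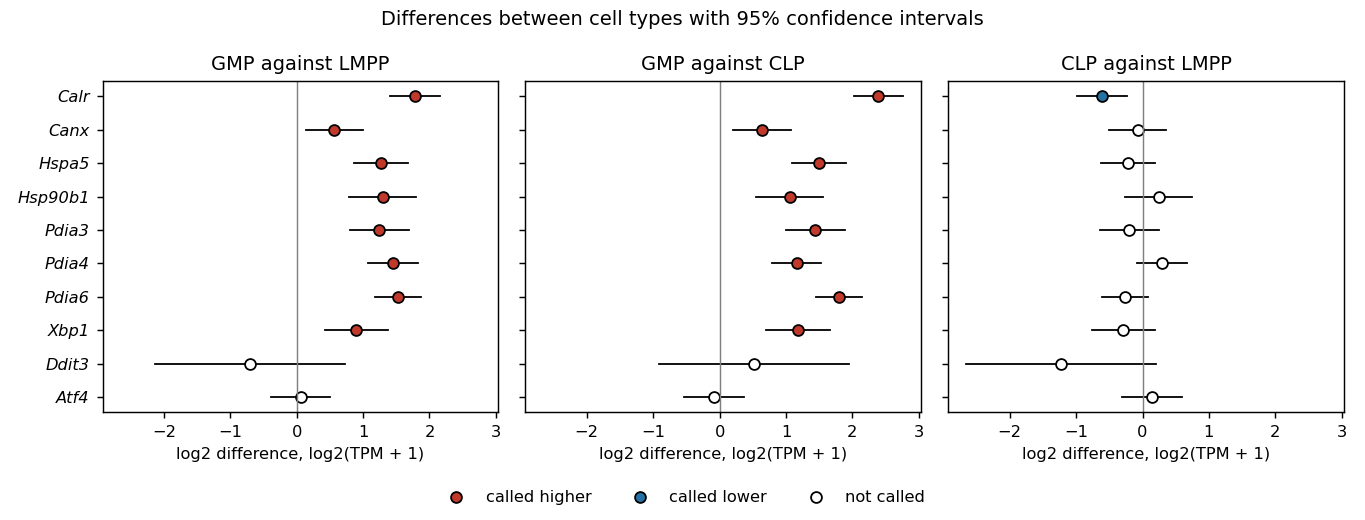
Log2 difference on the log2(TPM + 1) scale (horizontal axis) of each gene in the 3 comparisons of types, with 95% confidence intervals as lines, red points for genes called higher, blue for lower and white for not called. The 7 chaperone and foldase genes and Xbp1 lie above 0 in both comparisons of GMP, and in CLP against LMPP Calr alone is called.

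Among the transcription factors Xbp1 rose and the others were not called. Xbp1 encodes the factor whose messenger RNA is spliced by IRE1 and which activates chaperone and degradation genes (ENSMUSG00000020484, chromosome 11, 5520659 to 5525893, plus strand in mm10). Xbp1 stood at 93.8 and 90.1 TPM in batch 2 GMP and 62.0 and 67.6 TPM in batch 1 GMP, against 34.5 and 23.4 TPM and 47.4 and 32.4 TPM in CLP of the same batches, and 51.1 and 34.9 TPM and 42.4 and 37.1 TPM in LMPP. GMP lay above every CLP and LMPP library, and the log2 difference was 1.18 (SE 0.22, limma adjusted p = 0.00225) against CLP and 0.90 (SE 0.22, limma adjusted p = 0.0099) against LMPP. In batch 2 alone it was 1.10 against LMPP with an adjusted p of 0.0562, and in batch 1 alone 0.69 with 0.0389. Against CLP it was 1.66 in batch 2 and 0.71 in batch 1. Gene-level TPM does not separate the spliced from the unspliced form.

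Atf4 encodes the factor whose translation rises when PERK and related kinases act (ENSMUSG00000042406, chromosome 15, 80255184 to 80257541, plus strand in mm10). Atf4 stood at 87.2 and 81.8 TPM in batch 2 GMP and 89.2 and 96.5 TPM in batch 1 GMP, against 127 and 146 TPM and 64.7 and 64.9 TPM in CLP of the same batches, and 84.2 and 97.1 TPM and 83.4 and 76.1 TPM in LMPP. GMP and LMPP overlapped throughout, and CLP fell on either side of them by batch. Its difference in GMP was 0.06 (SE 0.21, limma adjusted p = 0.851) against LMPP, with a 95% interval of -0.39 to 0.51. Against CLP it was -0.09 (SE 0.21, limma adjusted p = 0.801), but the sign turned with the batch, at -0.68 in batch 2 (adjusted p = 0.0354) and 0.51 in batch 1 (adjusted p = 0.026).

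Ddit3 encodes CHOP, a factor downstream of Atf4 linked to cell death under lasting stress (ENSMUSG00000025408, chromosome 10, 127290774 to 127296288, plus strand in mm10). Ddit3 stood at 11.6 and 9.15 TPM in batch 2 GMP and 8.76 and 7.05 TPM in batch 1 GMP, against 17.2 and 0.740 TPM and 8.15 and 7.18 TPM in CLP of the same batches, and 16.7 and 50.9 TPM and 8.63 and 7.02 TPM in LMPP. It was the lowest of the 10 genes on average in every type, GMP lay within the range of the others, and the spread sat in batch 2 of CLP and of LMPP. The difference in GMP was -0.70 (SE 0.66, limma adjusted p = 0.445) against LMPP, with a 95% interval of -2.13 to 0.72, and 0.52 (SE 0.66, limma adjusted p = 0.607) against CLP, with an interval of -0.91 to 1.95. The intervals reach beyond 1 on the log2 scale on 1 side each, so a fall of that size against LMPP and a rise of that size against CLP are not excluded.

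The order of the mean levels within a type put Hsp90b1 first everywhere. In GMP it was followed by Hspa5, Calr, Canx, Pdia3, Pdia6, Pdia4, Atf4, Xbp1 and Ddit3. The order of Hspa5 and Calr switched with the batch, with Hspa5 above Calr in both batch 2 libraries and below it in both batch 1 libraries. Atf4 and Xbp1 switched too, with Xbp1 above Atf4 in both batch 2 libraries and below it in both batch 1 libraries. The other neighbours kept their order in all 4 GMP libraries, though the ranges of Hsp90b1 and Hspa5, of Canx and Pdia3 and of Pdia3 and Pdia6 overlapped. In CLP, Canx and Hspa5 took the next places with overlapping ranges, at 312 ± 176 and 271 ± 116 TPM. There Canx was above Hspa5 in both batch 2 libraries and below it in both batch 1 libraries. Calr followed with 132 ± 35.9 TPM. In LMPP, Hspa5 and Canx likewise overlapped and Calr was below both in all 4 libraries.

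Over both batches, 1 of these genes was called between CLP and LMPP, and the batches went different ways. For the 7 chaperones and foldases, the CLP sum averaged 0.655 times the LMPP sum in batch 1 and 1.41 times in batch 2. The fit over both batches averages such shifts, so a gene not called may still differ within a batch. Of the 10, 0 rose and 1 fell in CLP against LMPP, where 2.8% of all tested genes rose and 7.23% fell; at an unadjusted p under 0.05 the counts were again 0 and 1. The gene was Calr, at -0.61 (SE 0.17, limma adjusted p = 0.0437), and its call was lost when any 1 library other than CLP batch 2 replicate 1 or LMPP batch 2 replicate 1 was left out, with adjusted p between 0.0612 and 0.124. Within batches the Calr difference was -0.13 in batch 2 and -1.09 in batch 1, and 4 genes (Calr, Canx, Hspa5 and Pdia3) fell in batch 1 alone, where 7.23% of all tested genes fell, while 2 (Hsp90b1 and Pdia4) rose in batch 2 alone, where 4.79% rose. The median of the 10 was -0.21, beside -0.17 over all tested genes. The 356 higher and 920 lower genes of the table became 605 and 544 under median-ratio and 595 and 635 under quantile scaling.

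The rest of the folding and entry machinery was counted in lists of other genes. Of all tested genes, 7.62% rose and 21.3% fell in GMP against LMPP, and 9.96% and 13.9% against CLP. Of 24 other ER folding factors, 17 rose in GMP against LMPP and 17 against CLP, 14 of them in both, and 0 fell in either, also at an unadjusted p under 0.05; the list medians were 0.78 and 0.80. Fkbp11, a prolyl isomerase of secretory cells, stood at 28.3 and 27.3 TPM in batch 2 GMP and 47.3 and 46.0 TPM in batch 1 GMP, against 1.95 and 0.0 TPM and 5.15 and 3.14 TPM in CLP of the same batches, and 2.58 and 7.11 TPM and 6.48 and 6.31 TPM in LMPP. It was above all other libraries in GMP, and its differences of 3.65 (SE 0.37, limma adjusted p = 3.57e-05) against CLP and 2.55 (SE 0.37, limma adjusted p = 0.00044) against LMPP were the largest of the list. Sdf2l1, a partner of BiP, rose by 2.50 (SE 0.26, limma adjusted p = 6.03e-05) against LMPP. P4hb, the founding protein disulphide isomerase, rose by 1.98 (SE 0.17, limma adjusted p = 1.08e-05) against CLP and 1.77 (SE 0.17, limma adjusted p = 3.23e-05) against LMPP, and Pdia5 by 2.45 (SE 0.48, limma adjusted p = 0.00307) against CLP. In CLP against LMPP, 0 of the 24 were called, with 4 higher and 5 lower at an unadjusted p under 0.05.

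Of 23 genes of signal recognition, the translocon and the signal peptidase, which bring chains into the ER, 14 rose in GMP against LMPP and 13 against CLP, 11 of them in both, and 0 fell; at an unadjusted p under 0.05 in limma, 0 fell against LMPP and 1 against CLP. Ssr2, a translocon-associated subunit, rose by 1.57 (SE 0.12, limma adjusted p = 1.2e-05) against LMPP and 1.41 (SE 0.12, limma adjusted p = 1.27e-05) against CLP. Sec61b, a subunit of the translocon channel, rose by 1.35 (SE 0.13, limma adjusted p = 4.06e-05) against LMPP, and Ssr4, beside Ssr2 in its complex, by 1.26 (SE 0.11, limma adjusted p = 2.46e-05). Spcs3 of the signal peptidase and Ssr1 rose by 1.22 and 1.17 against CLP. Of 11 genes of the oligosaccharyltransferase, which adds N-glycans, 10 rose against LMPP and 9 against CLP, all 9 shared, and 0 fell, also at an unadjusted p under 0.05 in limma. Its subunit Rpn1 rose by 1.58 (SE 0.17, limma adjusted p = 5.96e-05) against LMPP, Ddost by 1.62 (SE 0.18, limma adjusted p = 6.91e-05) against CLP, and Ostc by 1.07 against LMPP and 1.10 against CLP. Of 17 tested genes of ER to Golgi transport, 12 rose and 1 fell against LMPP, and 10 rose and 1 fell against CLP; Sec24b, a cargo adaptor of the COPII coat, was the gene that fell in both, with differences of -0.66 (SE 0.20, limma adjusted p = 0.0275) against LMPP and -0.63 (SE 0.20, limma adjusted p = 0.0365) against CLP. Mcfd2 and Lman1, which form a cargo receptor, rose by 1.78 (SE 0.13, limma adjusted p = 3.73e-06) and 1.26 (SE 0.16, limma adjusted p = 0.000181) against CLP. Against LMPP the COPII adaptor Sec24d rose by 1.51, the cargo receptor Surf4 by 1.42 and Kdelr2, which returns chaperones to the ER, by 1.18.

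Genes of ER-associated degradation were counted too. Of 16 genes, 5 rose and 0 fell in GMP against LMPP, where 7.62% of all tested genes rose and 21.3% fell. Against CLP 7 rose and 2 fell, where 9.96% of all tested genes rose and 13.9% fell. In CLP against LMPP 3 rose and 0 fell, where 2.8% rose and 7.23% fell. Selenos, a degradation factor in the ER membrane, rose in GMP by 1.70 (SE 0.20, limma adjusted p = 0.000115) against LMPP and 1.25 (SE 0.20, limma adjusted p = 0.00083) against CLP. Edem2, which starts the mannose trimming of misfolded glycoproteins, rose by 1.44 against CLP. Herpud1 rose by 0.83 in CLP against LMPP, a call lost under 6 of 28 other settings. It was also called higher in CLP batch 2 than in CLP batch 1. The rise of Derl3 in CLP against LMPP, 1 of the 3, was lost without any 1 of 11 libraries (adjusted p 0.0529 to 0.105). Syvn1, the ubiquitin ligase Hrd1, differed by -1.01 (SE 0.28, limma adjusted p = 0.0189) in GMP against CLP, called lower, and rose by 1.50 (SE 0.28, limma adjusted p = 0.00679) in CLP against LMPP. The call against CLP was lost without either batch 2 GMP library (adjusted p 0.0656 and 0.0669). Syvn1 stood at 24.8 and 24 TPM in batch 2 GMP and 19.4 and 17.4 TPM in batch 1 GMP, against 98.5 and 77.9 TPM and 20.6 and 22.6 TPM in CLP of the same batches, and 17.3 and 21.2 TPM and 11.6 and 11.2 TPM in LMPP. Its high level was in the batch 2 CLP libraries, and the other 10 libraries lay between 11.2 and 24.8 TPM.

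The signalling arm was counted in the same way. Of 12 sensors and regulators of the unfolded protein response, 0 rose in GMP against LMPP and 1 fell, and 0 rose against CLP and 1 fell; at an unadjusted p under 0.05 the counts were 0 and 3 against LMPP and 2 and 2 against CLP. Of all tested genes 7.62% rose and 21.3% fell against LMPP, and 9.96% rose and 13.9% fell against CLP, so nothing particular to this list is read from its counts. The gene that fell against LMPP was Ppp1r15a, which encodes GADD34, the phosphatase subunit that reverses PERK signalling. Ppp1r15a stood at 8.65 and 4.52 TPM in batch 2 GMP and 2.91 and 4.34 TPM in batch 1 GMP, against 14.5 and 12.2 TPM and 2.63 and 12.4 TPM in CLP of the same batches, and 30.3 and 28.9 TPM and 23.0 and 12.6 TPM in LMPP. LMPP was above GMP without overlap and CLP overlapped both, with a difference in GMP against LMPP of -2.02 (SE 0.36, limma adjusted p = 0.00157). Bag6, a chaperone for tail-anchored proteins, was lower than in CLP, at -0.67 (SE 0.14, limma adjusted p = 0.00451). The sensor genes, given here for their role, were not called in any comparison of types. Ern1 (IRE1) differed by -0.12 (SE 0.46, limma adjusted p = 0.867) against LMPP, Eif2ak3 (PERK) by 0.24 (SE 0.18, limma adjusted p = 0.335) and Atf6 by 0.14 (SE 0.20, limma adjusted p = 0.627). With its wide SE, a sizeable change of Ern1 is not excluded. Between batches, Ern1 was called lower in CLP batch 2 than in CLP batch 1, and its difference of CLP against LMPP was called lower in batch 2.

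Targets of the integrated stress response and cytosolic chaperones were counted last. Of 17 tested stress response and amino acid genes, 2 rose and 2 fell against LMPP, and 1 rose and 1 fell against CLP. Ddit4, an inhibitor of mTORC1 that stress induces, differed by -1.24 (SE 0.31, limma adjusted p = 0.0114) against LMPP and -1.13 (SE 0.31, limma adjusted p = 0.0206) against CLP, lower in both, though the call against CLP was lost without GMP batch 1 replicate 1, GMP batch 2 replicate 2 or CLP batch 1 replicate 1 (adjusted p 0.0572 to 0.0699). Nars, an asparaginyl-tRNA synthetase, rose by 0.73 (SE 0.17, limma adjusted p = 0.00724) against LMPP and 0.95 (SE 0.17, limma adjusted p = 0.00171) against CLP. Of 9 tested cytosolic heat shock genes, 1 rose and 1 fell against LMPP, and 3 rose and 1 fell against CLP. Nothing particular to either list is read from these counts beside the same shares of all tested genes. Dnajb1, an Hsp40 co-chaperone of the cytosol, was lower in both, at -0.92 (SE 0.15, limma adjusted p = 0.000895) against LMPP and -0.60 (SE 0.15, limma adjusted p = 0.0113) against CLP, while Bag3, a co-chaperone of cytosolic Hsp70, rose by 1.65 against CLP. The median of the heat shock list was 0.18 against LMPP and 0.30 against CLP, beside 1.26 and 1.17 for the 10 ER genes, and the difference between lists was not tested.

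**Figure D3:**
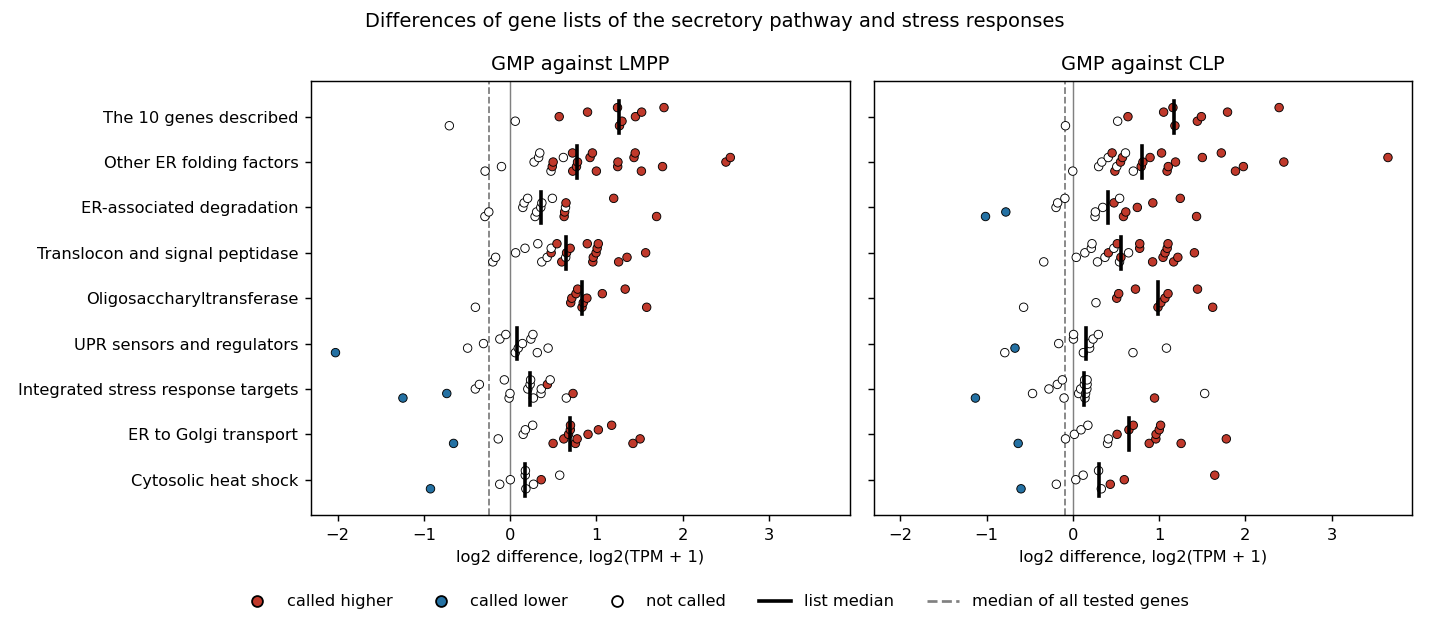
Log2 difference on the log2(TPM + 1) scale (horizontal axis) of every tested gene of 9 lists in GMP against LMPP and GMP against CLP, with red for called higher, blue for called lower, white for not called, a black bar for the list median and a dashed line for the median of all tested genes. Medians of the folding, entry, glycosylation and transport lists lie between 0.56 and 1.26, and those of the sensor, integrated stress response and heat shock lists between 0.08 and 0.30. The medians of ER-associated degradation lie between these, at 0.36 against LMPP and 0.41 against CLP.

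The transcripts of granule cargo were far more abundant in GMP. The 5 primary granule genes Mpo, Elane, Prtn3, Ctsg and Prss57 all rose in GMP in both comparisons, Elane the most, by 7.48 (SE 0.91, limma adjusted p = 0.000146) against CLP and 6.70 (SE 0.91, limma adjusted p = 0.000322) against LMPP. Their summed level was 20638 and 22665 TPM in batch 2 GMP and 25629 and 22654 TPM in batch 1 GMP, against 2045 and 169.7 TPM and 238 and 323 TPM in CLP of the same batches, and 1241 and 1078 TPM and 1443 and 1704 TPM in LMPP. The 7 chaperone and foldase genes summed to 4506 and 4219 TPM in batch 2 GMP and 2834 and 2879 TPM in batch 1 GMP, against 2155 and 1895 TPM and 1041 and 913 TPM in CLP of the same batches, and 1423 and 1445 TPM and 1326 and 1658 TPM in LMPP. Both sums were above every CLP and LMPP library in GMP. Granule transcripts took 2.06 to 2.56% of the TPM of a GMP library and the chaperones 0.283 to 0.451%. GMP held 4.58 to 9.04 granule TPM per chaperone TPM, CLP 0.0895 to 0.949 and LMPP 0.747 to 1.09.

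The sums differed in size of change. The mean granule sum was 16.8 times as high in GMP as in LMPP, and the mean chaperone sum 2.47 times. In GMP, both chaperone sums of batch 2 were above both of batch 1, whereas the granule sums of the batches overlapped. In CLP batch 2, replicate 2 held a chaperone sum of 1895 TPM beside a granule sum of 169.7 TPM, the lowest granule sum of the 12 libraries. Scaling without the granule genes moved the median of all genes by 0.03 in both comparisons of GMP, and no member changed its call.

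**Figure D4:**
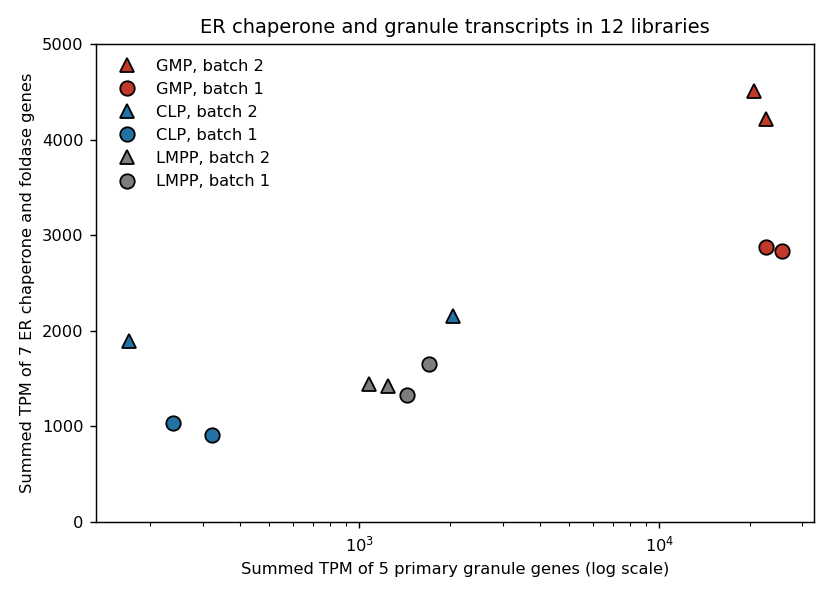
Summed TPM of the 7 ER chaperone and foldase genes (vertical axis, linear from 0) against summed TPM of the 5 primary granule genes (horizontal axis, log scale) in the 12 libraries, with triangles for batch 2 and circles for batch 1. GMP libraries stand apart at upper right, and the batch 2 CLP libraries lie above the batch 1 CLP libraries at granule sums of 169.7 and 2045 TPM.

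The share of single genes in the chaperone sum was compared as a description, with no test. Calr made up 16.3 to 23.7% of the chaperone sum in GMP, 7.78 to 11.3% in CLP and 11.5 to 16.4% in LMPP, so GMP overlapped LMPP narrowly but not CLP. Canx made up 10.6 to 13.8% in GMP, 16.6 to 26.5% in CLP and 16.8 to 22.8% in LMPP, lower in GMP without overlap. The share of Hspa5 was 18.7 to 21.9%, 17.1 to 18.9% and 19.0 to 23.1% in the same order, lower in CLP than in LMPP without overlap. Hsp90b1 made up 27.4 to 33.3% in GMP, 34.7 to 39.0% in CLP and 28 to 32.9% in LMPP, higher in CLP than in both others without overlap. The share of Pdia4 was 3.28 to 4.53% in CLP and 2.86 to 3.1% in LMPP, also without overlap, and the shares of Pdia3 and Pdia6 overlapped between all types.

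Within a cell type, several of the genes also differed between batches, and most so in CLP. In CLP batch 2 against CLP batch 1, 7 of the 10 rose and 0 fell, where 21.3% of all tested genes rose and 10.7% fell, so the batches of CLP differ widely; at an unadjusted p under 0.05 in limma 1 of the 10 fell. Median-ratio scaling gave 6 higher and 1 lower, and quantile scaling 4 higher (Canx, Hsp90b1, Hspa5 and Atf4) and 2 lower (Pdia6 and Xbp1). Over all tested genes, 2711 rose and 1362 fell, against 2025 and 1876 under median-ratio and 1696 and 1741 under quantile scaling. Canx rose by 1.50 (SE 0.13, limma adjusted p = 6.15e-05), Hsp90b1 by 1.18 (SE 0.17, limma adjusted p = 0.000715), Atf4 by 1.06 (SE 0.13, limma adjusted p = 0.000375) and Hspa5 by 1.05 (SE 0.17, limma adjusted p = 0.0014). Calr, Pdia4 and Pdia3 rose by 0.64, 0.65 and 0.68. The Pdia4 call was lost without CLP batch 1 replicate 2 (adjusted p = 0.105), and the Pdia3 call without any 1 GMP library, either batch 1 CLP library or CLP batch 2 replicate 1 (adjusted p 0.0503 to 0.181). Xbp1 went the other way, at -0.45 (SE 0.25, limma adjusted p = 0.19), and was not called.

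In GMP batch 2 against GMP batch 1, 3 of the 10 rose and 0 fell, where 6.16% of all tested genes rose and 2.07% fell; 0 fell at an unadjusted p under 0.05 in limma. These were Canx at 0.98 (SE 0.13, limma adjusted p = 0.00335), Hsp90b1 at 0.84 (SE 0.17, limma adjusted p = 0.0151) and Hspa5 at 0.73 (SE 0.17, limma adjusted p = 0.0285); the calls of Hsp90b1 and Hspa5 were lost without any 1 of the 4 GMP libraries, with adjusted p from 0.0967 to 0.198. Median-ratio scaling, under which 156 of all tested genes rose and 417 fell in place of 783 and 263, left Canx as the only 1 of the 10 called, and quantile scaling, with 221 and 275, kept the 3; Canx alone was also left with no variance trend. The mitochondrial and rRNA sum was 225532 and 209344 TPM in batch 2 GMP and 118531 and 165611 TPM in batch 1 GMP, and the mast cell and basophil sum 346 and 297 TPM in batch 2 and 102 and 128 TPM in batch 1. The erythroid sum was 56.1 and 198 TPM in batch 2 GMP and 1147 and 1309 TPM in batch 1 GMP, and the sum of 8 maturing neutrophil genes 47.3 and 312 TPM in batch 2 and 1232 and 1452 TPM in batch 1; their part in the batch difference was not tested. Calr was not called, at 0.14 (SE 0.12, limma adjusted p = 0.576). In LMPP batch 2 against LMPP batch 1, 0 of the 10 rose and 1 fell, where 2.19% of all tested genes rose and 2.42% fell; 1 rose and 2 fell at an unadjusted p under 0.05 in limma. Pdia6 fell by 0.82 (limma adjusted p = 0.045), a call lost when any 1 library other than a batch 2 CLP library was left out (adjusted p 0.0664 to 0.224).

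**Figure D5:**
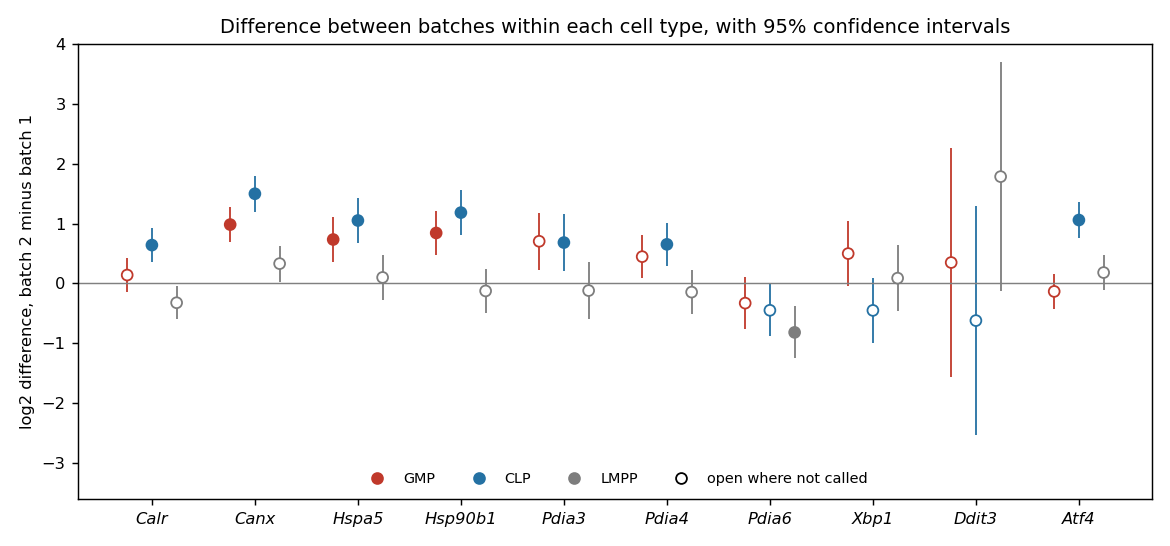
Log2 difference between batch 2 and batch 1 (vertical axis, log2(TPM + 1) scale) for each gene in GMP, CLP and LMPP, with 95% confidence intervals as lines, filled points where called and open points where not. Canx, Hspa5 and Hsp90b1 are called higher in batch 2 of GMP and of CLP, and Pdia6 lies below 0 in all 3 types.

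Tests of whether a difference between types depends on the batch gave 5 genes higher and 0 lower for CLP against LMPP, also at an unadjusted p under 0.05 in limma for the lower ones, where 5.9% of all tested genes were higher and 2.68% lower. Those were Hsp90b1 (1.31), Canx (1.17), Calr (0.96), Hspa5 (0.95) and Atf4 (0.88), each given as the log2 difference in batch 2 minus that in batch 1. The calls were lost without LMPP batch 1 replicate 2 for Calr (adjusted p = 0.0555), without CLP batch 1 replicate 2 for Hsp90b1 (0.0531), without any 1 of the 4 batch 1 CLP and LMPP libraries for Atf4 (0.0551 to 0.0727), and for Hspa5 without any 1 library but CLP batch 1 replicate 1, CLP batch 2 replicate 2 or LMPP batch 1 replicate 1 (0.0529 to 0.143). Under quantile scaling 1 of the 5, Hsp90b1, stayed called, 3 were called after rescaling without mitochondrial, rRNA and haemoglobin genes, and 2 with no variance trend. For GMP against CLP, 0 were higher and 1 lower (1 and 3 at an unadjusted p under 0.05 in limma), where 2.46% were higher and 3.02% lower. It was Atf4, at -1.19 (SE 0.19, limma adjusted p = 0.0075). Without CLP batch 2 replicate 1, batch 2 of CLP held 1 library, so that contrast had no replicates there. For GMP against LMPP, 0 of the 10 were called in either direction, where 0% of tested genes were higher and 0.0157% lower, and 6 of the 10 were higher at an unadjusted p under 0.05, as were 6.52% of all tested genes.

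Other cell types moved with some of these results. Plasma cells are rich in ER, and of 9 plasma cell genes all were under 1 TPM in every GMP library, where they summed to 0.710 to 2.83 TPM, against 21.6 to 260.3 TPM for CLP and 8.13 to 105 TPM for LMPP. In CLP, the plasma cell sum was 201 and 260.3 TPM in batch 2 and 63.5 and 21.6 TPM in batch 1, and the sum of 4 mature B cell genes was 225 and 233 TPM in batch 2 and 21 and 0.620 TPM in batch 1. Derl3 stands in both the plasma cell and the degradation list. The sum of 6 plasmacytoid dendritic cell genes was lower in CLP batch 2, at 114 and 129 TPM, against 460.4 and 334 TPM in batch 1. The part of these sums in the CLP batch difference was not tested. The 5 mast cell and basophil genes summed to 102 to 346 TPM in GMP, 6.35 to 179 in CLP and 38.5 to 92.4 in LMPP, and the 7 monocyte and macrophage genes to 68.6 to 139.9, 20.3 to 75.0 and 30.4 to 94.2 in the same order. The sum of 6 T and NK cell genes was 470.0 to 826 TPM in GMP, where Nkg7 alone reached 1 TPM, 93.9 to 108 in CLP and 109.6 to 160.1 in LMPP. The part of these sums in the GMP results was not tested. Without the haemoglobin-rich pair, 6 of the 10 genes rose and 3 fell in CLP batch 2 against batch 1, where 25.5% of all tested genes rose and 19.8% fell, and the calls of Calr, Hspa5, Hsp90b1, Pdia3, Pdia4, Pdia6 and Xbp1 in GMP stood in both comparisons.

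The genes moved together to different degrees. After the mean of each type was removed, log2(TPM + 1) of Hsp90b1 and Pdia4 correlated at r = 0.977 over the 12 libraries and Hspa5 and Hsp90b1 at 0.958, while Canx and Pdia6 stood at -0.633. With the mean of each type and batch removed, Hsp90b1 and Pdia4 stood at 0.908, Hspa5 and Hsp90b1 at 0.7 and Canx and Pdia6 at -0.244. Other pairs moved either way between the 2 measures. Canx and Hspa5 went from 0.938 to 0.244, and Pdia3 and Pdia6 from -0.123 to 0.901. These are descriptions over libraries that share type and batch.

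The genes whose pattern over the 12 libraries was most like the mean of the 7 chaperones and foldases were Lman1 (r = 0.986), a cargo receptor from ER to Golgi, Ap3s1 (0.977), C1galt1c1 (0.971), Ccdc115 (0.966) and Papss2 (0.964). Most like Xbp1 were Cpne2 (0.953), Rassf4 (0.951), Rnpep (0.951), Aldh4a1 (0.949) and Rexo2 (0.947). Most like Ddit3 were Fam114a2 (0.928), Klhl18 (0.915), Dyrk3 (0.907), 9230114K14Rik (0.906) and Taf1a (0.906), and most like Atf4 were Lrr1 (0.953), Cbwd1 (0.927), Phyh (0.922), Sgo2a (0.921) and Cep44 (0.92). Lman1 was also in the transport list, and the likeness is a description picked from 12718 genes.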

How the data were processed

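The authors deposited 1 table of TPM for 38924 Ensembl gene identifiers. The submitters' processing notes name RSEM 1.2.12, Bowtie2 2.2.0, edgeR 3.10.0 and the build mm10, with no order or settings. RSEM divides shared reads by estimate, so genes with near copies are uncertain, and use of strand is not stated. The table's TPM sum to 999999 to 1000001 per library, and the depth is unknown, so no counting interval or floor can be given. Another 17 columns match no sample by name and were not used.

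Symbols and coordinates came from the GENCODE annotation of mm10; 37607 identifiers matched. Promoter sequences are those of RefSeq, GRCm38.p6, matched by symbol for all 10 genes. A gene was tested if 4 or more of the 12 libraries had 1 TPM or more, as log2(TPM + 1), which understates changes of low genes, with limma 3.58.1 in R 4.3.3 (trend on mean expression, type and additive batch, 8 residual degrees of freedom, two-sided). Batch contrasts came from a fit of type by batch (6 residual degrees of freedom). The fits were tested on simulated data. Of 233 list entries, 232 matched; the entry for Ighd did not.

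The genes and lists were chosen with earlier results of these data known. From each list up to 3 called genes with the largest change were eligible per comparison, and not all are given; Sec24b and the sensors were picked once their values were known. The labels do not say that a replicate number marks shared material. Alternatives varied the pseudocount, filter, scaling, variance trend, batch term and the libraries used.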

Additional observations from a re-analysis of the deposited data

Results flagged for a closer look

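Pdia4 in LMPP batch 1 replicate 2 stood at 51.35 TPM, apart from the other 3 LMPP libraries at 40.1 to 41.3 TPM. Its gap to the nearest of them was 0.897 of the range of the group, past Dixon's 95% limit for 4 samples. Chance marks about 1 in 20 groups in this way. The rule was applied to each of the 10 genes and to the chaperone sum in each of the 3 types, so chance alone can yield such a flag.

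The Atf4 difference of GMP against CLP changed with the batch by -1.193 on the log2 scale (batch 2 minus batch 1, limma adjusted p = 0.0075), as a test of the difference itself. The difference of CLP against LMPP changed with the batch by 1.308 for Hsp90b1 (adjusted p = 0.0127), 1.167 for Canx (0.00892), 0.9629 for Calr (0.013), 0.9517 for Hspa5 (0.0393) and 0.8776 for Atf4 (0.0218). Under quantile scaling Hsp90b1 alone of these 5 stayed called, and the calls of Calr, Hsp90b1, Hspa5 and Atf4 were each lost without 1 library or another. All 6 share the CLP libraries, and the marker levels that differ between the CLP batches stand in the report; their part in these changes was not tested.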

How the results depend on the processing

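Calr, Hspa5, Hsp90b1, Pdia3, Pdia4 and Pdia6 were called higher in GMP in both comparisons under all 28 alternatives of each, and Xbp1 under all but batch 2 alone against LMPP. Canx lost its call under 9 of 16 settings other than single left-out libraries against LMPP and under 5 of 16 against CLP. Atf4 turned its sign in GMP against CLP, at 0.5114 in batch 1 alone and 0.4325 without both batch 2 CLP libraries. Replicate numbers were not taken to pair the samples, because the labels do not say that they mark shared material. Deviations of same-numbered libraries correlated at -0.106 to 0.169 from the means of type and batch. With 2 libraries per type and batch these deviations mirror each other, so replicates 1 and 2 repeat the same r. From the means of type, which also hold the shared batch, r was 0.0436 to 0.54. The highest r of each kind was that of the haemoglobin-rich pair. These values cannot settle whether replicate numbers pair the samples. The causes of the shifts below were not tested. In the type by batch fits, leaving out the haemoglobin-rich pair or any 1 library left 1 library in a type and batch. Counts under those settings rest on groups without replicates. The precision that depth gives to low genes such as Ddit3 is unknown without counts.

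In GMP against LMPP, genes higher numbered 969, against 1943 under median-ratio scaling, 1659 under quantile scaling, 540 with no batch term, 595 with the replicate block, 1454 with only the 2 types, 324 in batch 2 alone and 1478 without both batch 2 CLP libraries; genes lower numbered 2707, against 1658, 1552, 1619 (replicate block) and 802 (batch 2 alone). In GMP against CLP, genes lower numbered 1773, against 1079 with no batch term and 1056 in batch 2 alone, where 628 were higher (1267 in the main analysis) and 1 of the 10 genes was lower (0 in the main analysis).

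In CLP against LMPP, genes higher numbered 356, against 605 (median-ratio), 595 (quantile), 125 (no batch term), 57 (replicate block), 166 (2 types), 609 (batch 2 alone), 171 (without the haemoglobin-rich pair) and 195 to 496 with 1 library left out. Genes lower numbered 920, against 544, 484, 155, 370 and 574 under median-ratio scaling, no batch term, replicate block, 2 types and batch 2 alone, and 460 to 990 with 1 library left out. Of the 10 genes, 1 was lower, against 0 with no filter, median-ratio scaling, no variance trend, no batch term, replicate block, 2 types or batch 2 alone, 4 in batch 1 alone, and 0 to 1 with 1 library left out; 2 were higher in batch 2 alone.

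For the dependence on batch in CLP against LMPP, 5 of the 10 genes were higher, against 1 under quantile scaling, 3 without mitochondrial, rRNA and haemoglobin genes, 2 with no variance trend and 2 to 6 with 1 library left out; 0 were lower, against 1 without the haemoglobin-rich pair and 0 to 1 with 1 library left out. In GMP against CLP, 2 were higher and 2 lower without that pair, and 0 to 2 and 1 to 2 with 1 library left out. Between GMP batches 3 were higher, against 1 under median-ratio scaling or no variance trend and 1 to 4 with 1 library left out. Between CLP batches 4 were higher and 2 lower under quantile scaling, and 1 was lower under median-ratio scaling. Between LMPP batches 1 was lower, against 0 with a pseudocount of 0.1, no filter, no mitochondrial, rRNA and haemoglobin genes or no variance trend, 2 under median-ratio scaling and 0 to 1 with 1 library left out; 1 was higher without the pair and 0 to 1 with 1 library left out.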
